A study of Mus musculus with 8 samples.

Results

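Potassium channel subunits were followed across 4 groups of mouse hippocampus. The members are the genes whose symbol begins with Kcn, then a single letter of a pore-forming or silent subunit family, then a number, as matched through the accession of a probe that is not a control. Of 76 such symbols, Kcnj8 and Kcnj13 were left out, so 74 members remained, measured by 97 probes. They were 73 subunit genes and Kcnq1ot1, a noncoding transcript of the Kcnq1 locus that the rule also admits. Where a gene had several probes, the brightest over the 8 arrays stood for it. The calcium-activated subunit Kcnma1 and the auxiliary subunits fall outside the rule and are given as a separate list of related genes.

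Total RNA came from powdered hippocampus of male C57BL/6J mice aged 11 weeks, 8 mice a group, on 1 slide of 8 arrays. SED mice were sedentary on a placebo diet, ME mice ran mildly on a treadmill on the placebo diet, AX mice were sedentary with astaxanthin, a carotenoid pigment, and AX+ME mice had both. Placebo or astaxanthin powder was 0.5% of the food, and the astaxanthin powder held 2% astaxanthin. Each group has 2 samples, replicate 1 in the dye Cy3 and replicate 2 in Cy5. Nothing says how 8 mice became 2 samples, so the p-values reflect only how far these samples spread, which may be technical spread. Each group fills its own column of arrays, so slide position cannot be told apart from group.

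Potassium channels let potassium leave the cell, and so set the resting potential, shape and end the action potential and limit repeated firing. The voltage-gated families open on depolarisation, the inward rectifiers and the two-pore leak channels hold the resting potential, and the calcium- and sodium-activated families respond to ions that enter during firing. In hippocampal neurons, A-type currents of the Kv4 family act in dendrites, M-type currents of KCNQ subunits restrain bursts, and astrocytes clear potassium through inward rectifiers. In bulk tissue, fewer cells of a type and less RNA per cell cannot be told apart.

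The signal used is the background-subtracted intensity of the dye that labelled the sample, divided by that array's 75th percentile over all spots that are not controls, called here the relative signal. Relative signals of different probes are not compared with each other. Of the 74 members, 62 were well above background on all 8 arrays and 64 on both arrays of at least 1 group, the filter for testing. No member was saturated. The markers of hippocampal granule neurons (5 of 5) and of pyramidal neurons (6 of 6) were well above background on all 8 arrays. Markers of some neighbouring tissues moved with the groups. All 10 choroid plexus markers were lower in ME and in AX+ME than in SED, by medians of -0.46 and -0.50 on the log2 scale, and all 6 hypothalamic and pituitary markers were lower in ME, by a median of -1.53. The summed choroid plexus signal was 70.2 and 53.1 in the SED samples, 58.4 and 48.7 in ME, 62.9 and 54.4 in AX and 52.6 and 50.4 in AX+ME, and all 10 markers were above background on all 8 arrays. The summed signal of the hypothalamic and pituitary list, 3 of whose 6 markers were above background on all 8 arrays and none on 0, was 1.93 and 1.82 in the SED samples, 0.82 and 0.83 in ME, and between 1.26 and 1.39 in AX and AX+ME. By marker, 2 of these 6 were lower in AX than in SED, with a median of 0.11, and 4 were lower in AX+ME, with a median of -0.08. Other lists moved less in ME. Against SED, in ME, AX and AX+ME, the medians were -0.25, -0.14 and -0.14 for meningeal fibroblast markers. They were -0.25, -0.09 and -0.04 for striatal markers and 0.12, 0.08 and 0.08 for thalamic markers. The part of these neighbouring tissues in the differences of the channel genes was not tested.

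Both SED arrays were uneven on their left side, below spot column 70, and this touches every comparison with SED. The slide prints 2 members 10 times on each array, which shows the unevenness directly. For Kcnn2, a calcium-activated subunit behind the after-hyperpolarisation that follows a spike, the coefficient of variation of the 10 spots was 16.4% on the SED Cy3 array and 20.6% on the SED Cy5 array, against 0.655% to 3.29% on the other 6. For Kcnj6, a G-protein-gated inward rectifier, it was 8.12% and 18.1% against 2.16% to 7.78%. Kcnn2 spots ran from 4.55 to 9.62 on the SED Cy5 array. Over all probes printed 10 times, the median coefficient of variation was 10.6% and 19.2% on the SED arrays and 2.70% to 3.42% on the others. From column 70 it was 4.90% and 6.39% on the SED arrays, and below column 70 it was 14.6% and 25.8%. The brightest probe of 42 members lay from column 70, that of 30 below it, and Kcnn2 and Kcnj6 had spots on both sides. The column is named for many members, but not for all. Kcna2, Kcnb2, Kcnd1, Kcnh4, Kcnj5, Kcnk2, Kcnk13, Kcnk16, Kcnq1, Kcns1 and Kcns2, given without a column, also lie below column 70.

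**Figure D1:**
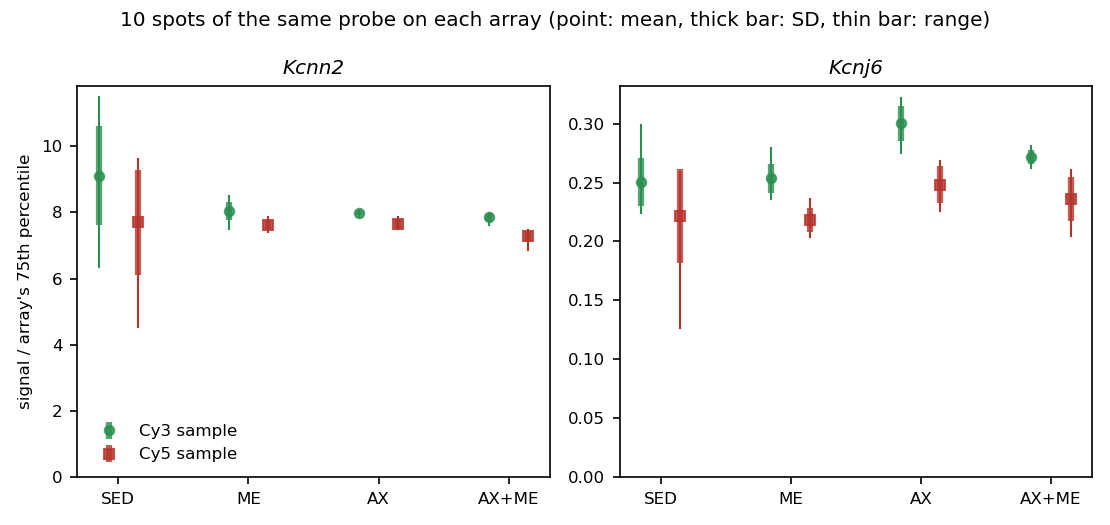
Relative signal of the 10 spots of Kcnn2 and of Kcnj6 on each array, by group, with the mean (point), SD (thick bar) and range (thin bar). The SED arrays spread widest for both genes, with coefficients of variation of 16.4% and 20.6% for Kcnn2 against at most 3.29% elsewhere.

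The model was a single limma fit over all 8 samples with terms for group and dye, adjusted by Benjamini-Hochberg over 27167 genes and unnamed transcripts, and repeated over the 17770 with probes from column 70. No member passed an adjusted p of 0.05 in any of 6 comparisons, in either fit. In the fit over all columns this was 0 of 64 members for ME against SED, where 2.85% of everything tested passed, 0 of 64 for AX against SED, where 3.29% passed, and 0 of 64 for AX+ME against SED, where 6.7% passed. In the same fit, AX+ME gave 0 against ME and 0 against AX, where 0% of all passed. These differences do not use SED, but their p-values share the spread of all 8 samples. The interaction, which is the exercise difference on astaxanthin (AX+ME minus AX) minus that on placebo (ME minus SED), gave 0 where 0.464% passed. From column 70, 0 of 41 members passed in each comparison, and the share of all genes was 0.0169% where AX+ME was set against SED or against ME, and 0% in the other 4. At an unadjusted p under 0.05, limma gave 13, 13 and 17 of the 64 members against SED (in ME, AX and the combined group), 3 each for AX+ME against ME and against AX, and 8 for the interaction. All genes tested passed that level in 24.3%, 26.5%, 32.0%, 8.21%, 5.91% and 14.8% of cases, and the members' shares were 20.3%, 20.3%, 26.6%, 4.69%, 4.69% and 12.5%, lower each time. The counts include Kcnj2 for ME, in both fits, and Kcng3 for AX. Each entered the fit only through the group where it was brightest, so neither counts as a test result. From column 70 the members' shares were 19.5%, 22.0%, 31.7%, 4.88%, 14.6% and 7.32%, against 21.8%, 24.7%, 32.3%, 13.5%, 9.75% and 12.9% of all, so there the share was higher than that of all genes in AX+ME against AX, with 6 of 41.

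The median member lay -0.09 from SED in ME, -0.08 in AX and -0.04 in AX+ME on the log2 scale, against -0.05, -0.04 and -0.04 over all genes tested. The first 3 comparisons share the SED samples and are not independent of each other. Of the 64 members, 46, 46 and 39 were lower than in SED (71.9%, 71.9% and 60.9%, against 61.4%, 58.1% and 56.0% of all genes). In AX+ME 25 were lower than in ME and 25 lower than in AX (39.1% each, against 47.0% and 46.0% of all). A 2-sided size rule, at least 1.2-fold in both dyes, was read from column 70. Against SED, 0 of 41 members were higher and 1 (Kcnq1ot1) lower in ME, where 1.07% and 6.32% of all genes were. In AX it was 0 and 0, against 2.35% and 5.01% of all. In AX+ME it was 1 higher (Kcnk9) and 3 lower (Kcna1, Kcnh5 and Kcnq1ot1), against 5.08% and 6.38%. AX+ME against ME gave 1 higher (Kcnk9) and 0 lower, against 5.16% and 1.02%, and AX+ME against AX gave 1 higher (Kcnk9) and 1 lower (Kcnt2), against 3.31% and 1.88%. These shares are of the same order as the background or below it.

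**Figure D2:**
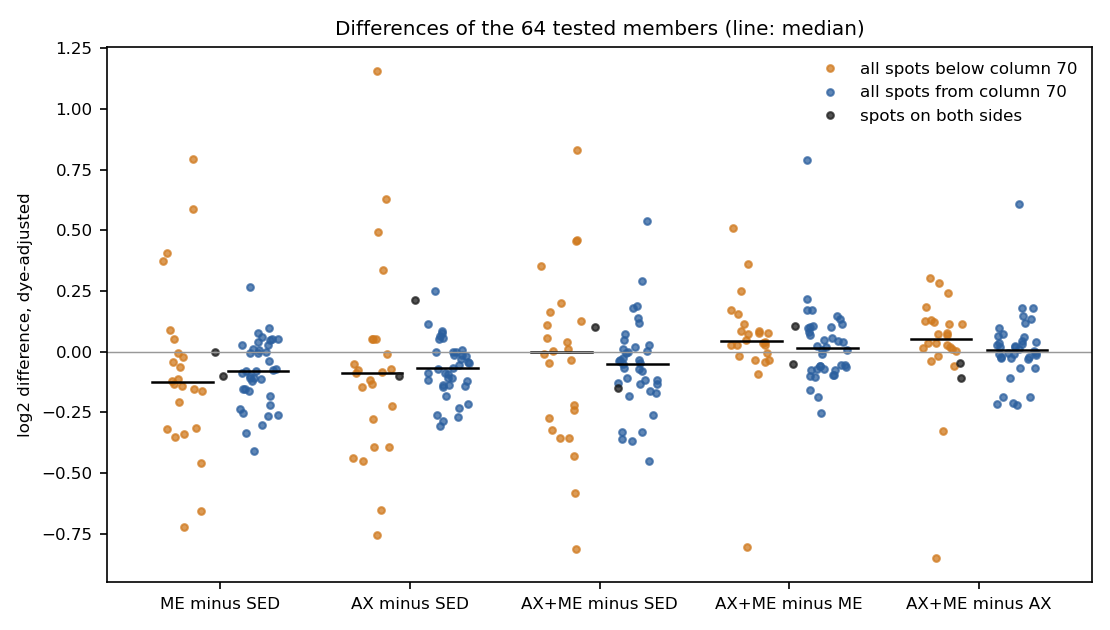
Dye-adjusted log2 differences of the 64 tested members in 5 comparisons, each point a member, coloured by the side of the array on which its spots lie, with the median as a line. Against SED the members below column 70 spread from -0.81 (Kcnd3) to 1.16 (Kcng3), and those from column 70 from -0.45 to 0.54. Kcng3 entered the fit only through AX, where it was brightest, and was well above background on no SED array, so its value is a description.

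Members below column 70 spread further in comparisons that use SED than in those that do not. Their median absolute log2 difference was 0.18, 0.18 and 0.23 against SED (same order), and 0.07 and 0.08 for AX+ME against ME and against AX. For the 38 tested members wholly from column 70 it was 0.09, 0.09 and 0.12 against SED, and 0.08 and 0.04 otherwise. Across the 8 samples, the highest relative signal was a median of 1.22 times the lowest among the 37 members from column 70 that were well above background on every array, and 1.53 times among the 23 below it. The ratio was over 1.5 for 12 of those 23 and for 1 of the 37, Kcnk9.

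**Figure D3:**
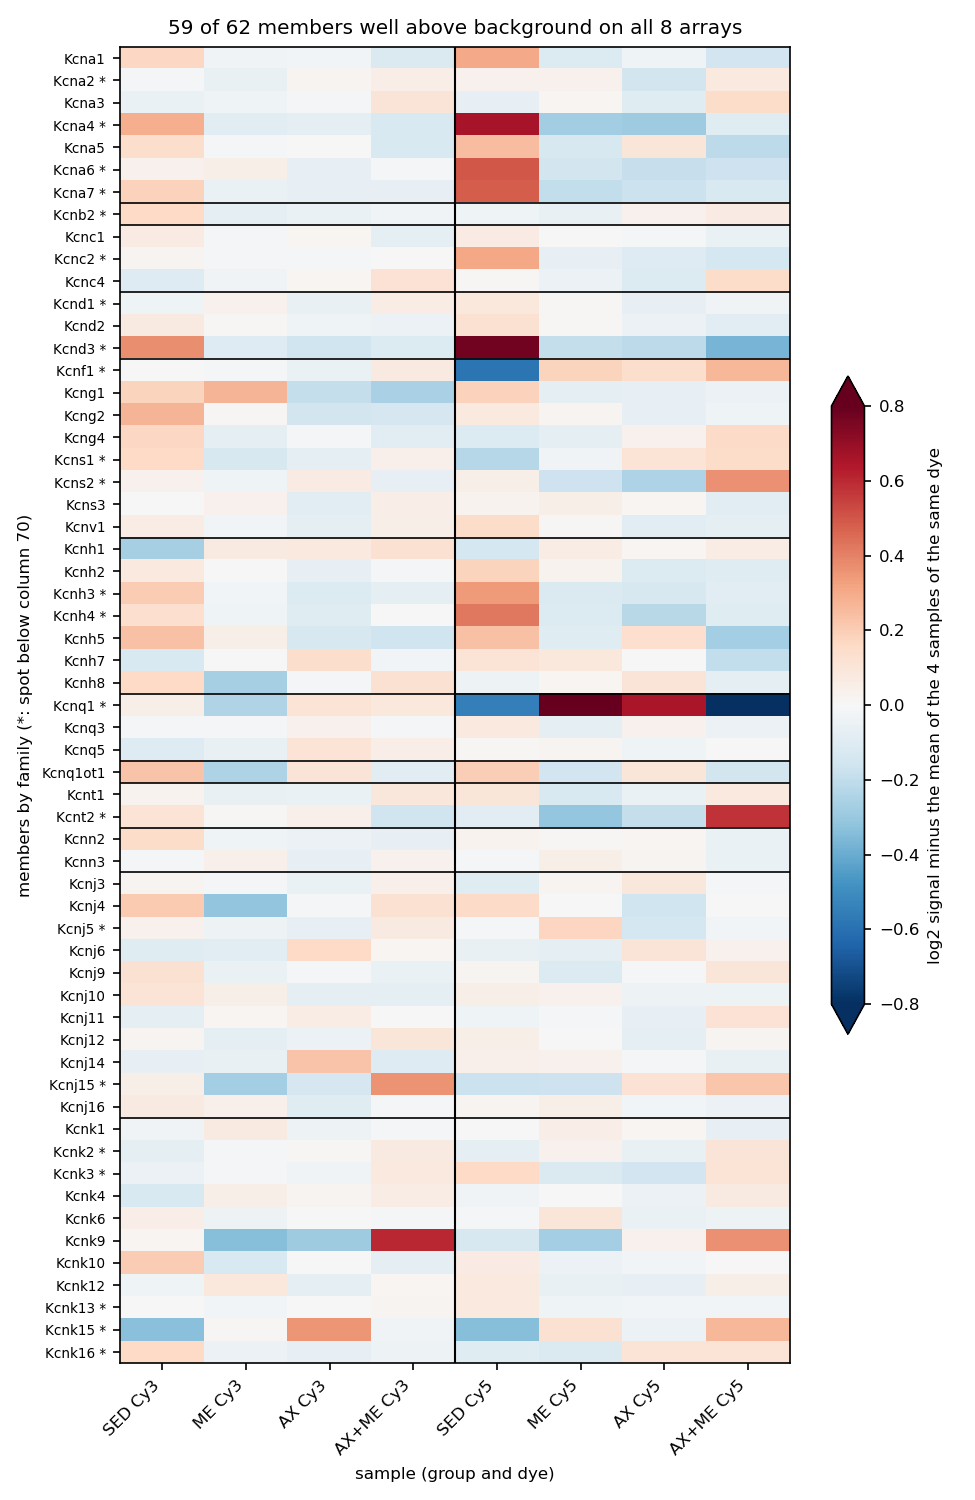
Log2 relative signal of 59 of the 62 members well above background on all 8 arrays, each minus the mean of the 4 samples of the same dye, with samples in columns and members grouped by family in rows. The deepest colours are in starred members, whose spots lie below column 70, mostly in the SED Cy5 sample, and in Kcnk9, where both AX+ME samples are high.

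The Kv1 family (Kcna) builds the low-threshold delayed rectifiers of axons. It had 7 members tested, of which 6, 6 and 5 were lower in ME, AX and AX+ME than in SED, with medians of -0.30, -0.26 and -0.36, and none passed. From column 70, only 3 were tested, and 2 of them were lower each time, with medians of -0.26, -0.15 and -0.36. Of all genes tested over all columns, 61.4%, 58.1% and 56.0% were lower. Kcna1, the main axonal subunit, whose loss causes episodic ataxia and seizures, had relative signals of 15.7 and 17.2 in the SED Cy3 and Cy5 samples, 13.7 and 12.9 in ME, 13.8 and 13.6 in AX, and 12.9 and 12.5 in AX+ME. Both SED samples were the highest of their dye and AX+ME the lowest. The log2 difference from SED was -0.30 in ME (SE 0.0729, limma adjusted p = 0.107), -0.26 in AX (adjusted p = 0.121) and -0.37 in AX+ME (adjusted p = 0.0583), with the probe at column 72, so it missed the threshold each time. Kcna5, a related subunit, had 0.210 and 0.240 in SED, 0.189 and 0.185 in ME, 0.190 and 0.216 in AX, and 0.175 and 0.175 in AX+ME. It lay in the same order as Kcna1 in both dyes. Its AX+ME difference was -0.36 (SE 0.0832, limma adjusted p = 0.0731), and its other probe, at column 34, gave -0.13 (SE 0.274). In ME against SED the brightest probe gave -0.26 and the other probe 0.12, the opposite sign, and the mean of the probes gave -0.072. The RefSeq gene table of GRCm38.p6 lists Kcna5, Kcna1 and Kcna6 as neighbouring genes. Kcna6 had 16.1 and 22.6 in SED, 16.2 and 14.4 in ME, 15.0 and 14.1 in AX, and 15.6 and 14.3 in AX+ME. Only the SED Cy5 sample stood apart there, at column 16. The other probe of Kcna6, at column 50, gave 0.46 (SE 0.223) for AX+ME against SED where the first gave -0.35. Kcna3, better known from lymphocytes, ran the other way, with 0.159 and 0.156 in SED against 0.178 and 0.181 in AX+ME, a log2 difference of 0.19 (SE 0.0586, limma adjusted p = 0.115).

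Kcna4, an inactivating subunit of axon terminals, gave the widest values of the family, at column 40. Its relative signal was 3.76 and 6.40 in SED, 2.90 and 3.34 in ME, 2.92 and 3.33 in AX, and 2.83 and 3.79 in AX+ME. The 2 SED samples differed from each other by more than SED Cy3 differed from any other Cy3 sample. Kcna7 behaved alike at column 30, with 1.63 and 2.20 in SED and 1.37 to 1.44 elsewhere, and its second probe, at column 4, gave 0.34 for AX+ME against SED where the first gave -0.43. Kcna2, the partner of Kcna1 in axons, had the smallest spread of group means in the family (SD 0.0530 on the log2 scale), with values between 1.02 and 1.32. Kcna10 was above background on 2 arrays and was not tested.

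**Figure D4:**
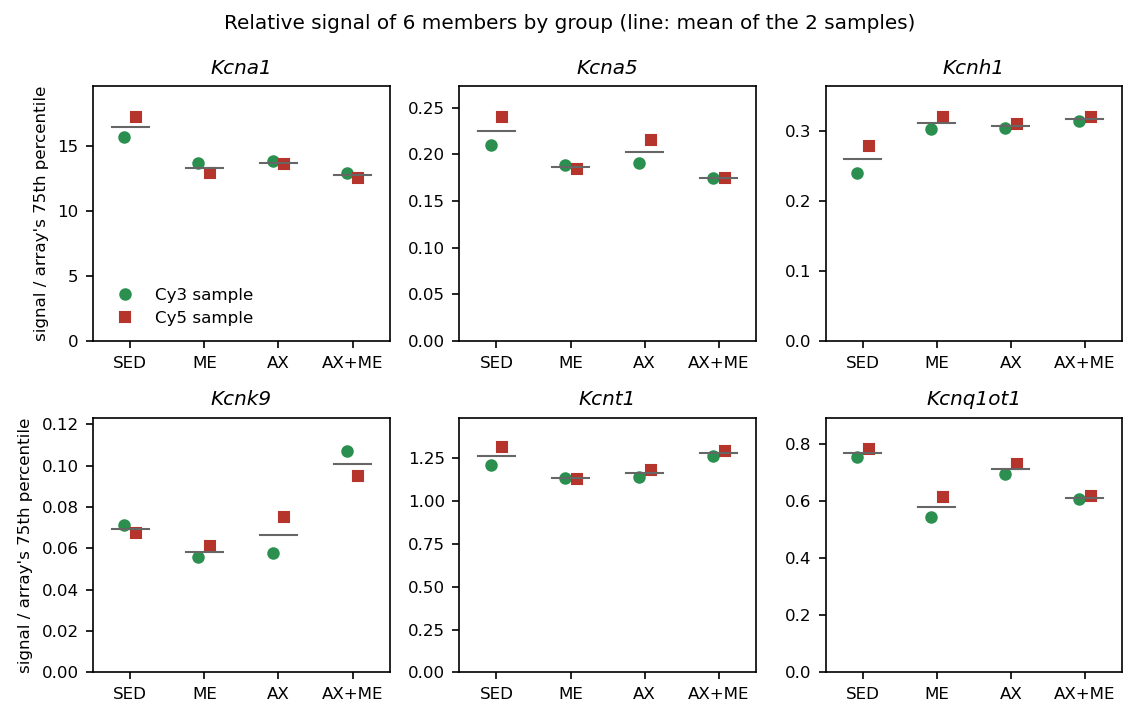
Relative signal (signal over the array's 75th percentile) of 6 members by group, with circles for Cy3 and squares for Cy5 samples and a line at the mean of the 2. Kcna1, Kcna5 and Kcnq1ot1 are highest and Kcnh1 lowest in SED, Kcnk9 is highest in AX+ME at 0.107 and 0.0948, and none of these differences passed the threshold.

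Promoter sequences are shown for 3 of the members whose 2 SED samples, by the brightest probe, lay apart from the ME and AX+ME samples. Other members, such as Kcnh5 and Kcnc1, did so too and are not shown. How many of all genes did so was not counted. The sequences come from RefSeq with build GRCm38.p6, in a window of 300 bases that spans the annotated start, 5′ to 3′. Capitals mark GGGCGG (GC box) or TGACG (the core of a cyclic AMP response element) on either strand, so also CCGCCC and CGTCA. Kcna5 lies at chr6:126535506-126535805 on the minus strand and holds neither motif. Kcnh1 lies at chr1:192190527-192190826 on the plus strand, with 2 GC boxes and 27 CpG pairs. Kcnq1ot1 lies at chr7:143296498-143296797 on the minus strand, with 1 TGACG core.
Kcna5: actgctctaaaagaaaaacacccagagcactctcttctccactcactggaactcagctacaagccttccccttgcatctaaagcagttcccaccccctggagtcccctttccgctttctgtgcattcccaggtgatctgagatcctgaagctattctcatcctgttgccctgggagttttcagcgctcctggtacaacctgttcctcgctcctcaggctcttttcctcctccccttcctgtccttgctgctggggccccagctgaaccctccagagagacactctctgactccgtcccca
Kcnh1: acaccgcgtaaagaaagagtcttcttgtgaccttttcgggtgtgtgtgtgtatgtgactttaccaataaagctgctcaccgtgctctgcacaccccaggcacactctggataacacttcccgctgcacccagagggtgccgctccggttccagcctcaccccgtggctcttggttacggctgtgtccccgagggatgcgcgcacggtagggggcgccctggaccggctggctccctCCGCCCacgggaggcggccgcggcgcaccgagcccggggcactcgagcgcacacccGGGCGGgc
Kcnq1ot1: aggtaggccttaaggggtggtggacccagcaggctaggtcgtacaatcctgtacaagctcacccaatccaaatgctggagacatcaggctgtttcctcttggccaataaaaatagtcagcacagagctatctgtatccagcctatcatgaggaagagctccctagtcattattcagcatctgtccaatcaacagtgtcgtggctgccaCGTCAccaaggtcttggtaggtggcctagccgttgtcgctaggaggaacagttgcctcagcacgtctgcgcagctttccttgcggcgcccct
The table held 66 promoters of 52 members, and 51.5% of them contained a GC box against 35.7% of 32851 promoters of all genes. TGACG was found in 19.7% against 20.8%, the E-box CACGTG in 6.06% against 7.15%, TATAAA in 4.55% against 13.6%, and the full element TGACGTCA in 0 of 66 against 1.79%. Median GC content was 61.2% for members and 52.7% for all. A match describes the letters only.

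The Kv2 family (Kcnb), which carries the main delayed rectifier current of pyramidal somata, is represented here by Kcnb2, which ran from 0.167 to 0.229 and whose largest log2 difference from SED was -0.13, in ME. In the Kv3 family (Kcnc), the fast channels of interneurons, Kcnc1 had 3.62 and 3.58 in SED, 3.41 and 3.40 in ME, 3.49 and 3.39 in AX, and 3.29 and 3.29 in AX+ME. Its AX+ME difference of -0.13 was small but repeated in both dyes (SE 0.0488, limma adjusted p = 0.153), with the probe at column 162. Of its 2 other probes, that at column 93 gave -0.056 and that at column 43 gave 0.72 (SE 0.148), the opposite sign. Kcnc4 ran the other way, with 3.30 and 3.63 in SED and 3.85 and 4.00 in AX+ME, which was the highest of its dye both times. Kcnc2 stood out only in the SED Cy5 sample (6.27 against 4.59 to 4.83 in the other Cy5 samples), at column 67.

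The Kv4 family (Kcnd) carries the dendritic A-type current. Kcnd2, the main subunit in pyramidal neurons, had 10.3 and 12.5 in SED, 9.85 and 11.6 in ME, 9.56 and 11.1 in AX, and 9.50 and 10.9 in AX+ME. The order SED, ME, AX, AX+ME from high to low was the same in both dyes, and the AX+ME difference was -0.16 (SE 0.0525, limma adjusted p = 0.124). Kcnd3 had 14.5 and 23.6 in SED, 10.4 and 12.1 in ME, 10.02 and 12.0 in AX, and 10.4 and 10.7 in AX+ME. Its log2 difference was -0.72, -0.76 and -0.81 in ME, AX and AX+ME (SE 0.168, limma adjusted p = 0.1003, 0.0847 and 0.0613). That probe lies at column 11, and the second probe, at column 27, gave 0.32 for AX+ME. With normexp background correction of the median signal the 3 differences were -0.064, -0.019 and -0.052. Kcnd1 had the smallest spread of the family (SD 0.0420).

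The EAG, ERG and ELK family (Kcnh) had 7 members tested, of which 5, 5 and 6 were lower than in SED in ME, AX and AX+ME. From column 70 it was 3, 3 and 4 of 5. Over all columns, 2 members were higher in ME and in AX. In AX+ME only Kcnh1, an EAG subunit, was higher, and it was lowest in SED in both dyes. It had 0.240 and 0.278 in SED, 0.302 and 0.319 in ME, 0.304 and 0.310 in AX, and 0.313 and 0.319 in AX+ME. The log2 differences were 0.27, 0.25 and 0.29 (SE 0.0696, limma adjusted p = 0.118, 0.120 and 0.0761), at column 116. With normexp background correction of the median signal they were 0.021, -0.013 and 0.032. Kcnh5, the other EAG subunit, had 0.297 and 0.330 in SED, 0.261 and 0.261 in ME, 0.231 and 0.307 in AX, and 0.226 and 0.232 in AX+ME, for a difference of -0.45 in AX+ME (SE 0.116, limma adjusted p = 0.0847). Without normexp, the 2 EAG subunits lay on opposite sides of SED, and neither passed the threshold. Kcnh2, the ERG subunit of cardiac repolarisation, ran from 0.356 and 0.385 in SED to 0.323 and 0.315 in AX (-0.22, limma adjusted p = 0.140), and with normexp that difference was -0.40 (limma adjusted p = 0.0450, from 0.0450 to 0.455 over the alternatives). Kcnh3, an ELK subunit of forebrain neurons, had 14.9 and 15.4 in SED and between 11.1 and 12.8 in the other 6 samples, at column 52, with limma adjusted p = 0.0882, 0.0658 and 0.0610. Its log2 differences of -0.34, -0.39 and -0.36 were -0.12, -0.15 and -0.11 with normexp. Kcnh4, another ELK subunit, had the largest spread of group means here (SD 0.192), with 2.40 in SED Cy5 against 1.53 to 1.80 in the other 7 samples. Kcnh7 had the smallest (SD 0.0814), Kcnh8 ran from 0.0302 to 0.0420, and Kcnh6 was above background on 3 arrays only.

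The KCNQ family (Kcnq) gives the M-type current. Of its neuronal subunits, Kcnq3 ran from 0.282 to 0.331 and Kcnq5 from 1.12 to 1.31. Their log2 differences from SED in ME were -0.076 for Kcnq3 and 0.027 for Kcnq5. Kcnq1, known from heart and inner ear, had 0.0559 to 0.0711 in the Cy3 samples but 0.0950, 0.262, 0.219 and 0.0683 in the Cy5 samples, in the order SED, ME, AX, AX+ME. The ME and AX values were high in one dye only, and the differences from SED were 0.59 and 0.63 with an SE of 0.599.

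Kcnq1ot1, which silences its neighbours on the paternal chromosome as an imprinted noncoding RNA, came nearest the threshold of all members. Its relative signal was 0.758 and 0.783 in SED, 0.546 and 0.616 in ME, 0.696 and 0.733 in AX, and 0.607 and 0.619 in AX+ME. The order ME, AX+ME, AX, SED from low to high was the same in both dyes, so both exercised groups lay below both sedentary groups. The log2 difference was -0.41 in ME (SE 0.0607, 95% interval -0.57 to -0.25, limma adjusted p = 0.0517), -0.33 in AX+ME (limma adjusted p = 0.0525) and -0.22 for AX+ME against AX (limma adjusted p = 0.706). This probe lies at column 132, and the other probe, at column 18, gave 0.76 (SE 0.409) for AX+ME against SED. For AX+ME against AX the other probe gave -0.25, the same sign. Averaging the probes turned the ME and AX+ME differences from SED to 0.13 and 0.22. Over the alternatives the limma adjusted p in ME ran from 0.0228 with robust limma-trend, where 1902 of all genes passed, to 0.735 with the mean of probes.

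The silent modifiers (Kcnf, Kcng, Kcns and Kcnv) do not form channels alone and alter Kv2 channels. Of 9 tested, 6, 6 and 4 were lower than in SED in ME, AX and AX+ME. From column 70 it was 4, 5 and 4 of 5. Kcng2 had 2.99 and 2.71 in SED, 2.50 and 2.60 in ME, 2.23 and 2.45 in AX, and 2.25 and 2.51 in AX+ME, a difference of -0.28 in AX (SE 0.0914, limma adjusted p = 0.148) that was -0.0055 with the mean of its probes. Its second probe, at column 82, gave 0.23 for AX+ME where the first, at column 138, gave -0.26. Kcng1 had 1.37 in ME Cy3 and 1.00 in ME Cy5, so ME was the highest group in Cy3 and the lowest in Cy5. Kcnf1, at column 55, had 0.766 in SED Cy5 and 1.27 to 1.61 in the other 7 samples. For AX+ME against SED this probe gave 0.46 and the other probe of Kcnf1, at column 22, gave -0.023. Kcns2 had 0.793 in AX+ME Cy5 and 0.517 to 0.635 elsewhere, Kcns3 had the smallest spread (SD 0.0356), and Kcng4 ran from 0.0517 to 0.0723. Kcns1 differed more between the dyes than between groups, with 0.236 to 0.288 in Cy3 and 0.150 to 0.194 in Cy5, and Kcnv1 ran from 1.27 to 1.73. Kcng3, at column 11, was well above background on 2 AX arrays, 1 ME array, 1 AX+ME array and 0 SED arrays. It entered the fit only through AX, where it was brightest, so its measured log2 differences from SED (0.79, 1.16 and 0.83) are given as a description. Kcnv2, a retinal subunit, was above background on no array.

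Of the sodium-activated subunits, Kcnt1 (Slack) had 1.21 and 1.31 in SED, 1.14 and 1.13 in ME, 1.14 and 1.18 in AX, and 1.26 and 1.29 in AX+ME. SED and AX+ME were the 2 highest groups in both dyes, and ME and AX the 2 lowest. The differences were -0.15 in ME and -0.12 in AX against SED and 0.17 for AX+ME against ME, and the interaction was 0.29 (SE 0.0803, 95% interval 0.08 to 0.50, limma adjusted p = 0.247), or 0.46 with normexp. Kcnt2 had 0.343 in AX+ME Cy5 and 0.176 to 0.216 in the other 7 samples at column 65, and the probe of the same gene at column 157 gave AX+ME differences of -0.30 against SED and -0.39 against AX (limma adjusted p = 0.449 from column 70). Among the calcium-activated subunits, Kcnn2 averaged over its 10 spots had 9.11 and 7.70 in SED, 8.04 and 7.61 in ME, 7.98 and 7.64 in AX, and 7.85 and 7.27 in AX+ME. With the spots from column 70 alone its AX+ME difference was -0.17 (SE 0.0422, limma adjusted p = 0.0816). Kcnn3 stayed between 0.196 and 0.216 in all 8 samples by its brightest probe. That probe gave log2 differences from SED of 0.05 in ME and -0.01 in AX. Its other probe gave 0.43 and 0.22. Kcnn1 and Kcnn4 were above background on 1 and 4 arrays and were not tested.

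Inward rectifiers (Kcnj) had 12 members tested, with medians of -0.02, -0.09 and -0.02 against SED for ME, AX and AX+ME. Kcnj10, the astrocytic channel that buffers potassium, had 15.4 and 14.4 in SED, 14.7 and 14.3 in ME, 13.5 and 13.6 in AX, and 13.5 and 13.6 in AX+ME. Both astaxanthin groups lay below both placebo groups in each dye, by -0.14 for AX against SED (SE 0.0477, limma adjusted p = 0.183 from column 70). Its partner Kcnj16 had 2.48 and 2.36 in SED, 2.42 and 2.40 in ME, 2.21 and 2.29 in AX, and 2.33 and 2.25 in AX+ME, so both astaxanthin groups were the lower again. The summed signal of 6 astrocyte markers was 63.9 and 50.9 in SED, 57.1 and 54.9 in ME, 53.3 and 52.6 in AX, and 53.1 and 53.0 in AX+ME, and its part in the Kcnj10 and Kcnj16 values was not tested. Kcnj4, a strong rectifier of forebrain neurons, had 15.1 and 14.4 in SED, 10.5 and 13.0 in ME, 13.0 and 11.6 in AX, and 14.2 and 13.0 in AX+ME, and its interaction was 0.48 (SE 0.188, limma adjusted p = 0.349), or 0.27 without the ME Cy3 sample.

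The G-protein-gated rectifiers, through which inhibitory receptors hyperpolarise neurons, are Kcnj3, Kcnj5, Kcnj6 and Kcnj9. Kcnj6 had 0.251 and 0.222 in SED, 0.253 and 0.218 in ME, 0.300 and 0.248 in AX, and 0.272 and 0.236 in AX+ME. Both AX samples were the highest of their dye, and the AX difference was 0.21 (SE 0.0532, limma adjusted p = 0.102), a value that rests on 10 spots an array and was 0.22 with the 6 spots from column 70 and 0.081 with normexp. Kcnj3 had the smallest spread of the family (SD 0.0244), although its second probe gave -0.34 for AX+ME against SED where the first gave 0.05, both from column 70. Kcnj9 ran from 1.46 to 1.95 and Kcnj5 from 0.0602 to 0.0758. Kcnj11, the pore of ATP-sensitive channels, ran from 0.417 to 0.496, Kcnj12 from 0.590 to 0.702 and Kcnj14 from 0.102 to 0.141. The brightest probe of Kcnj11 gave 0.056 for AX against SED, and its other probe gave 0.75. Kcnj15, the widest (SD 0.213), had 0.0411 and 0.0313 in SED, 0.0330 and 0.0315 in ME, 0.0362 and 0.0382 in AX, and 0.0511 and 0.0412 in AX+ME, a difference of 0.51 for AX+ME against ME (SE 0.134, limma adjusted p = 0.513; 0.20 with normexp) at column 44. Kcnj2 was above background on 5 arrays and entered the fit only through SED, where it was brightest, with a log2 difference of -0.24 in ME given as a description. Kcnj1, a renal channel, was above background on none.

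The two-pore leak channels (Kcnk) hold the resting potential and answer to pH, stretch and anaesthetics. They had 11 members tested, and medians of -0.01, -0.05 and 0.01 against SED for ME, AX and AX+ME. Kcnk9, an acid-sensitive TASK subunit, was the one member from column 70 with a range over 1.5-fold. Its relative signal was 0.0714 and 0.0674 in SED, 0.0557 and 0.0610 in ME, 0.0579 and 0.0753 in AX, and 0.107 and 0.0948 in AX+ME. Both AX+ME samples lay above all 6 others. The AX+ME difference was 0.79 against ME (SE 0.150, 95% interval 0.39 to 1.19, 1.73-fold, limma adjusted p = 0.398), 0.61 against AX (1.53-fold, limma adjusted p = 0.666) and 0.54 against SED (1.45-fold, limma adjusted p = 0.0947). The log2 differences against ME and AX do not use the SED arrays, but their SE, interval and adjusted p share the spread of all 8 samples. In a limma fit without both SED samples the adjusted p was 0.312 against ME and 0.463 against AX. The value against AX was 0.39 with normexp and 0.40 without the AX Cy3 sample. The interaction was 0.86 (SE 0.212, limma adjusted p = 0.216), being 1.24 in Cy3 and 0.48 in Cy5. It has 1 probe, at column 148, so no second probe could be set beside it.

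Kcnk3, the other main TASK subunit, had 0.652 and 0.748 in SED, 0.668 and 0.620 in ME, 0.661 and 0.603 in AX, and 0.711 and 0.724 in AX+ME, at column 47. The TASK relative Kcnk15, at column 55, was lowest in SED (0.0721 and 0.0674) against 0.0826 to 0.117 elsewhere, with a difference of 0.49 in AX (SE 0.177, limma adjusted p = 0.174). Of the mechanosensitive TREK and TRAAK subunits, Kcnk2 ran from 0.327 to 0.372 with AX+ME highest in both dyes, Kcnk4 from 1.44 to 1.63 and Kcnk10 from 0.979 to 1.23. The brightest probe of Kcnk4, at column 99, gave 0.14 for AX+ME against SED, and its other probe, at column 64, gave -0.30 (SE 0.0910). Kcnk10 was highest in SED in both dyes, and its ME difference was -0.22 (SE 0.0767, limma adjusted p = 0.185). Kcnk1 varied by a factor of 1.09 over all 8 samples (6.37 to 6.95), the narrowest range of the 62 members. Kcnk6 ran from 0.604 to 0.702, Kcnk12 from 0.643 to 0.777, Kcnk13 from 0.698 to 0.809 with the smallest spread (SD 0.0276), and Kcnk16 from 0.0917 to 0.115. Kcnk5 and Kcnk7 were above background on 3 arrays each, and Kcnk18, a channel of sensory ganglia, on none.

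Several probes were well above background on at least 1 array for 20 members, and they gave opposite signs for 12, 12 and 15 members in ME, AX and AX+ME against SED, for 9 in AX+ME against ME, for 13 in AX+ME against AX and for 11 in the interaction. Where a probe lay below column 70, 8, 9 and 9 of 11 members had opposite signs against SED, with median ranges of 0.63, 0.76 and 0.77. With all probes from column 70 it was 4, 3 and 6 of 9, with median ranges of 0.21, 0.23 and 0.39. The largest range was that of Kcnh4 (3.13 for AX+ME against SED), whose second probe was above background on 1 array. For AX+ME against ME the median range was 0.16 over the 20.

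**Figure D5:**
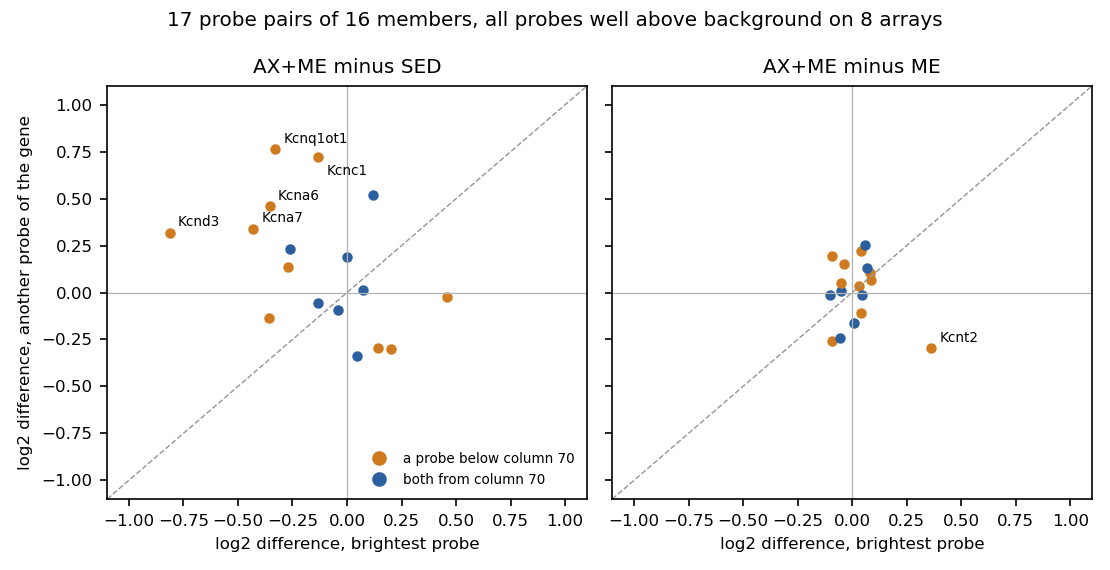
Log2 difference from the brightest probe (x axis) and from another probe of the same member (y axis) for 17 probe pairs of 16 members, with the dashed line at equality. Against SED the pairs farthest from the line have a probe below column 70, as for Kcnd3 at -0.81 and 0.32, and against ME the points draw in, with Kcnt2 apart.

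Other potassium channel genes were taken from a list of 31 auxiliary subunits, regulators and pore subunits outside the rule, of which 26 were tested. In the fit over all columns 1 of 26 was lower past the threshold in ME against SED and in AX+ME against SED, and 0 in the other 4 comparisons. That is 3.85% of the list, against 2.85% and 6.7% of all genes. At an unadjusted p under 0.05, limma gave 9, 11 and 9 of 26 against SED (34.6%, 42.3% and 34.6%, beside 24.3%, 26.5% and 32.0% of all), 3 and 4 for AX+ME against ME and against AX (11.5% and 15.4%, beside 8.21% and 5.91%) and 6 for the interaction (23.1%, beside 14.8%). The one was Kcne2, an auxiliary subunit of KCNQ and ERG channels, at -0.52 in ME (SE 0.0559, limma adjusted p = 0.0302) and -0.69 in AX+ME (limma adjusted p = 0.0156). Kcne2 is also a marker of choroid plexus, on the list whose 10 members were all lower in these comparisons, and from column 70 its limma adjusted p was 0.0829 and 0.0517. Among 15 tested from column 70, 0 passed in any comparison.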

How the data were processed

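Total RNA of 8 samples was measured on 8 arrays of 1 slide, replicate 1 of each group in Cy3 and replicate 2 in Cy5. Per the submitters' processing notes, the authors read the scans with Agilent Feature Extraction 11.0.1.1 and deposited each spot's intensity. The file headers give a 2-channel extraction, so per the file headers values are background-subtracted, detrended and linear, for a probe design on mouse build mm9. The series-wide value list deposited beside them holds the same intensity to within 0.5.

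The processed signal of the sample's own channel was used without control and non-uniform spots, spots of a probe were averaged, each array was scaled to its own 75th percentile, and values were floored at 0.001 and converted to log2. Testing needed a probe well above background on 2 of 2 arrays in some group, and the brightest probe stood for a gene. Symbols came from accessions through the RefSeq gene table (GRCm38.p6).

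Differences were fitted with limma 3.58.1 in R 4.3.3 with terms for group and dye (3 residual and 1.52 prior degrees of freedom), with two-sided p-values and Benjamini-Hochberg adjustment across every gene tested. Because both SED arrays were uneven below column 70, the fit was repeated from that column. The fit was tested on simulated data. Members, lists and tests were chosen with earlier results of these data known. The members named are, per comparison, those past the threshold or else the 5 with the smallest unadjusted p, and, per family, those with the smallest and largest spread, those above background on no array, and those whose probes disagreed in sign or whose groups did not overlap. Alternatives were other background corrections, scalings and filters, the mean of probes, no dye term, limma-trend and leaving out each sample. With 2 samples a group, the number of arrays limits the precision. Protein sequences were not used here, and the values of a few members are not reported here.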

Additional observations from a re-analysis of the deposited data

Results flagged for a closer look

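In the AX+ME Cy3 array, 1 member, the Kv4 subunit Kcnd1, was well above background in the red channel, which held no labelled sample. On the other 7 arrays 0 members were well above background in the unlabelled channel, where 0.909% to 1.19% of all spots were, against 1.53% on the AX+ME Cy3 array. No group has the 4 samples that a check for outlying samples needs, and no member passed the threshold of the interaction.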

How the results depend on the processing

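The count of members past the threshold was 0 in each comparison as reported. Against SED, in the order ME, AX, AX+ME, it became 1, 4 and 7 with normexp on the median signal, 1, 1 and 4 with probes well above background on all 8 arrays, and 1, 1 and 4 with robust limma-trend. All genes called rose with them from 775, 895 and 1819 to 2014, 3880 and 5558, to 1311, 1638 and 2725, and to 1902, 2344 and 3529. Leaving out 1 sample gave 0 to 10 members in each of these comparisons and 0 to 7 in the interaction. The values above 0 came without SED replicate 1 (10, 10, 10 and 7, with 4930, 5061, 5388 and 2923 of all genes called, so SED rested on its Cy5 array alone) and, for AX+ME against SED, without SED replicate 2 (1, Kcnh1). Without any single ME, AX or AX+ME sample, at most 5 of all genes were called. For AX+ME against SED without SED replicate 2, the share of members called was below that of all genes. Each omission left 1 array in a group, so no conclusion is drawn from the counts of these fits. With no filter on dim probes 221, 270 and 434 of all genes were called, and with only the groups compared in the fit 0. AX+ME against ME and against AX gave 0 members under all settings run. Quantile normalization, another percentile, the mean of probes and no dye term left all member counts at 0. Signs turned for Kcnh1 (-0.013) and Kcnh4 (0.039) in AX against SED with normexp, for Kcnq1ot1 with the mean of its probes (0.13 in ME and 0.22 in AX+ME against SED), and for Kcnt2 in AX+ME against AX (-0.052 with the mean of probes, -0.39 from column 70, and -0.21 without AX+ME replicate 2 to 0.78 without AX+ME replicate 1); apart from the change of probe or sample, the cause was not tested. The other of the 45 named differences of 22 members kept their sign in the 12 other settings and 8 omissions, where they could be fitted, but not their size. By over 1.5 times, 23 of 45 moved with normexp, 9 of 45 with the mean of probes, 3 of 45 with quantile normalization, and 8 of 45 without SED replicate 2. The Kcnd3 differences from SED were -0.064, -0.019 and -0.052 with normexp, and that of Kcng2 in AX was -0.0055 with the mean of probes. A planned normexp on the mean signal was not run as written and used the median signal, a choice made after seeing the data. The dye term is also the replicate block, since replicate 1 is Cy3 and replicate 2 Cy5 in each group. Without the replicate block, 656, 638 and 972 of all genes and 0 members were called against SED.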
